A study of Mus musculus with 5 samples.

Results

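The genes described here are 9 chemokine genes and 1 chemokine receptor gene: the CXC ligands Cxcl1, Cxcl2, Cxcl9, Cxcl10, Cxcl12, Cxcl13, Cxcl14 and Cxcl16, the CX3C ligand Cx3cl1, and the receptor gene Cxcr4. They were chosen by symbol among 22180 gene symbols that had a probe of their own on the array, and where a symbol had several probes the brightest was to stand for it. Each of the 10 genes had 1 probe, so no choice between probes was needed, and all 10 lay above the level filter that 15294 genes passed. The group was put forward with the contrast between the hearts already known, above all for Cxcl13, so the values below are a description of these 5 arrays.

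Chemokines are small secreted proteins that steer leukocytes by binding receptors with a G protein partner. The CXC family takes its name from the spacing of its first cysteines. Cxcl1 and Cxcl2 draw neutrophils through Cxcr2, Cxcl9 and Cxcl10 are induced by interferons and draw activated T cells through Cxcr3, and Cxcl13 draws B cells through Cxcr5 and is known from lymphoid follicles, serous membranes and fat-associated lymphoid clusters. Cxcl12 holds cells that carry Cxcr4 in tissue, Cxcl14 is expressed by many epithelia and stromal cells, and Cxcl16 and Cx3cl1 are made as membrane proteins from which proteases release the soluble chemokine. In injured heart, chemokines of this family are known for bringing neutrophils and monocytes into reperfused muscle.

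All hearts came from wild-type C57Bl6J mice at zeitgeber time 12 (hours after lights on) and were perfused in isolation on a Langendorff apparatus. Each heart was stabilised for 20 min, left without flow for 20 min and reperfused for 20 min before freezing. The antagonist group (n = 3) had received a REV-ERB alpha antagonist into the peritoneal cavity (10 µM in the labels' words). It was given 4 h and again 1 h before the hearts were perfused. REV-ERB alpha is a nuclear receptor and transcriptional repressor of the circadian clock. Each array is described as a biological replicate. The sham group (n = 2) underwent ischemia and reperfusion but received no antagonist. The labels give neither the name of the compound, nor a vehicle injection in sham, nor the age of the mice, and hearts that had no ischemia were not analysed here. Whole hearts were used, so a change in the number of cells of a type and a change in RNA per cell cannot be told apart.

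The deposited values are log2 expression values, so differences between groups are log ratios, and folds are their powers of 2. The array medians lay between 3.92 and 3.95, and precision is limited by the number of arrays. Heart muscle genes were high and even on all arrays: the mean level of 10 cardiomyocyte markers was 11.73 to 11.77 in sham and 11.75 to 11.78 with the antagonist. Antagonist replicate 2 stood apart in atrial, fat, mesothelial and endothelial adhesion genes, so the difference of each of the 10 genes is also given without it. In the limma fit over all genes, 0 of 15294 genes (0%) passed an adjusted p under 0.05, and 704 had an unadjusted p under 0.05. With a single sham array left, limma called 1319 genes (without sham replicate 1) or 2058 (without sham replicate 2), and 0 with any antagonist array left out. None of the 10 genes passed either, with limma adjusted p values between 0.637 and 0.986.

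Cxcl13 was the gene of the group that differed most. It was higher in every antagonist heart than in either sham heart, by 4.82-fold on average and by 2.86-fold when antagonist replicate 2 was left out. Cxcl2 was the other ligand whose groups did not overlap on the higher side, and Cxcr4 was the gene whose groups did not overlap on the lower side. The other 7 genes had overlapping groups. Of the 10 genes, 2 were thus separated on the higher side, where 6.19% of all tested genes were, and 1 on the lower side, where 6.33% were. Without antagonist replicate 3, 5 members were separated on the higher side beside 9.25% of all genes, and without sham replicate 2 the number was 4 beside 28.1%. On the lower side the number was 2 without sham replicate 1 (beside 22.5% of all genes), without sham replicate 2 (24.6%) or without antagonist replicate 2 (8.87%). With 1 sham heart left, the 2 of 10 on the lower side are near the share of all genes. Cxcl13 was the 1 member whose log2 difference reached 1, as did that of 18 tested genes (0.118%).

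**Figure D1:**
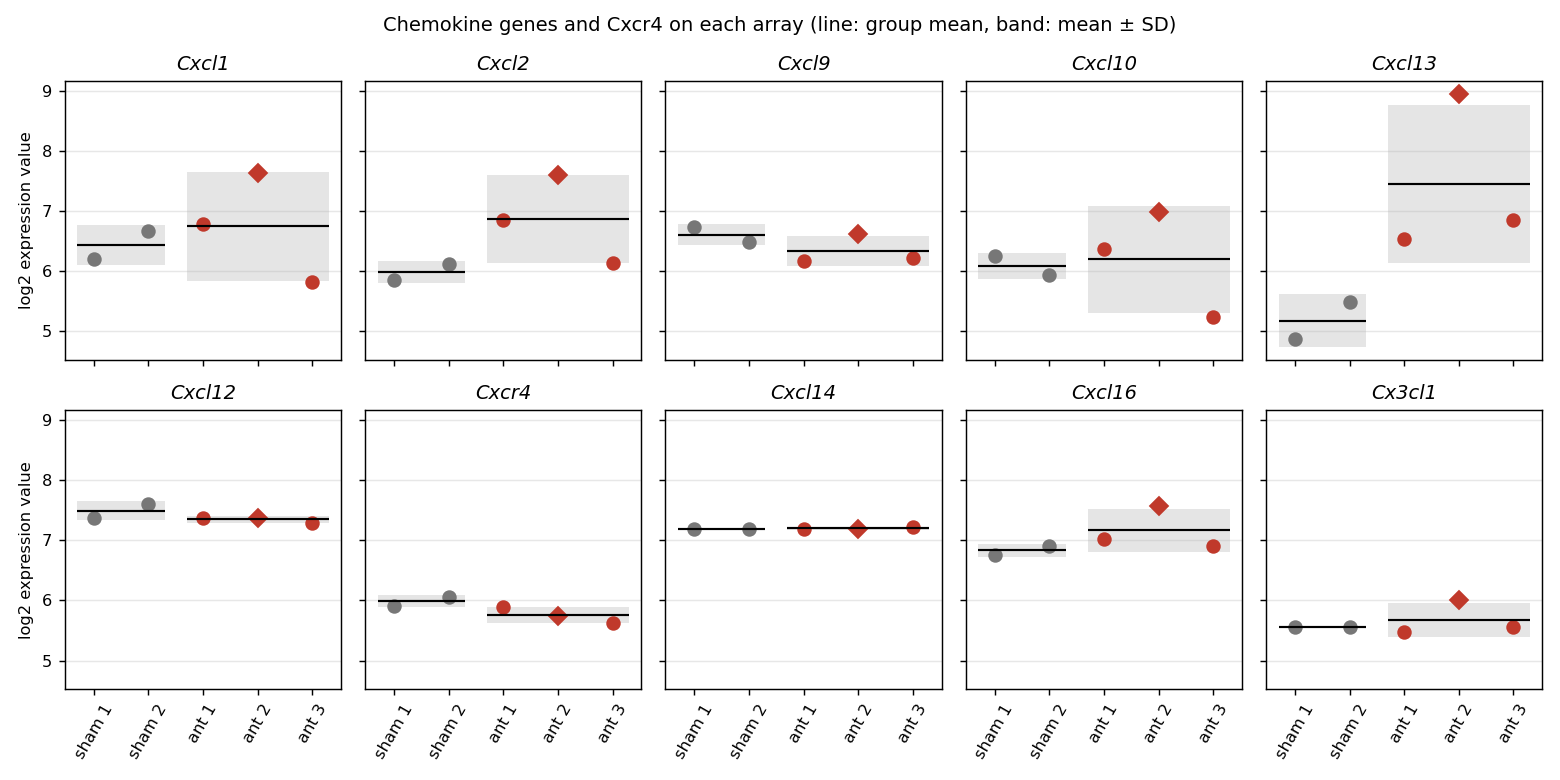
Log2 expression value (vertical axis) of each of the 10 genes on each array (horizontal axis; ant, antagonist), with grey points for sham, red points for the antagonist and a diamond for antagonist replicate 2; lines are group means and bands are mean ± SD (n = 2 and n = 3). Cxcl13 lies between 4.86 and 5.50 in sham and between 6.54 and 8.95 with the antagonist; heights of different genes come from different probes and are not comparable.

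Cxcl13 (Entrez Gene 55985) encodes the B cell chemoattractant and ligand of Cxcr5. Its log2 value was 4.86 and 5.50 in the sham hearts and 6.54, 8.95 and 6.85 in antagonist replicates 1, 2 and 3. The groups were separated by 1.05, the distance from the higher sham heart to the lowest antagonist heart, which exceeded the 0.63 between both sham hearts. Antagonist replicate 2 stood 2.10 above the next array. The group values were 5.18 ± 0.45 (SD, n = 2) in sham and 7.45 ± 1.31 (SD, n = 3) with the antagonist, a log2 difference of 2.27 ± 0.91 (limma SE). Without antagonist replicate 2 the difference was 1.52. In both versions this was the second largest difference of all 15294 genes toward the antagonist, after Bmp10, a growth factor gene of atrial muscle (3.33, and 1.61 without that array).

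The region before the start of Cxcl13 is shown because the treatment was aimed at REV-ERB alpha, which binds the letters AGGTCA after a stretch rich in A and T. Promoter sequences were available for 9 of the 10 genes. In the 300 bases around each start (250 before and 50 after), the letters TAGGTCA were searched on both strands. They were found before Cxcl13, on the strand opposite to the gene from 87 to 81 bases before the start, and before Cxcl9, on the strand of the gene from 86 to 80 bases before the start. Of 32851 promoters of the same length, 2.61% held these letters. Both stretches run 5′ to 3′ along their gene, from RefSeq in build GRCm38.p6, with the match in capitals (120 bases before each start, Cxcl13 at chr5:95956819-95956938 on the plus strand and Cxcl9 at chr5:92328080-92328199 on the minus strand).
Cxcl13: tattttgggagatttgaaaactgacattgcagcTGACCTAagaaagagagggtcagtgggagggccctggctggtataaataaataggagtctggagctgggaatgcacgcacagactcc
Cxcl9: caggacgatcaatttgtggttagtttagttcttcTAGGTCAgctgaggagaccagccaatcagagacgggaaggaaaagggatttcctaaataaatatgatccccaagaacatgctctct
Of the stretch rich in A and T, the search required only the T before AGGTCA. A match of letters is not a measured binding site, and its part in the values was not tested. The differences were 2.27 ± 0.91 (SE) for Cxcl13 and -0.27 ± 0.19 (SE) for Cxcl9, whose groups overlapped.

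Cxcr5, the receptor gene for Cxcl13, had the same value of 4.39 on 4 arrays and 4.26 on antagonist replicate 1. Markers of the cells that carry this receptor did not separate the groups. Of 8 B cell markers with a probe, 4 were above the level filter (Ms4a1, Cd79a, Cd79b and Cd22 were below it), and 0 of those 4 had groups that did not overlap. The mean level of the 8 markers was 3.69 to 3.77 in sham and 3.73 to 3.86 with the antagonist. Those means lie below the array medians (3.92 to 3.95), so flat values there do not show that these cells were unchanged. Ighm, the heavy chain of immunoglobulin M, had the largest difference of that list at 0.24 ± 0.32 (SE), and 0.0021 without antagonist replicate 2. Of the markers of lymphoid stroma and follicular dendritic cells, 3 of 7 were above the filter and 0 of the 3 were separated; Pdpn, the gene of podoplanin, led them with 0.32 ± 0.28 (SE), or 0.089 without antagonist replicate 2.

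Genes whose profile over the 5 arrays lay nearest to that of Cxcl13 were sought among all genes above the level filter, by the root mean square distance between values centred on their own mean. Icam1, the adhesion molecule that leukocytes grip on activated endothelium, was nearest at 0.49. The other 7 lay between 0.59 and 0.66, where the median over all tested genes was 1.40. They were the selectin genes Selp and Sele, the fatty acid desaturase gene Scd1, the carbonic anhydrase gene Car3, the haptoglobin gene Hp, the galectin gene Lgals12 and the cytochrome gene Cyp2e1. All 8 had their highest value on antagonist replicate 2, as Cxcl13 did, which is the array that weighs most in this distance.

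**Figure D2:**
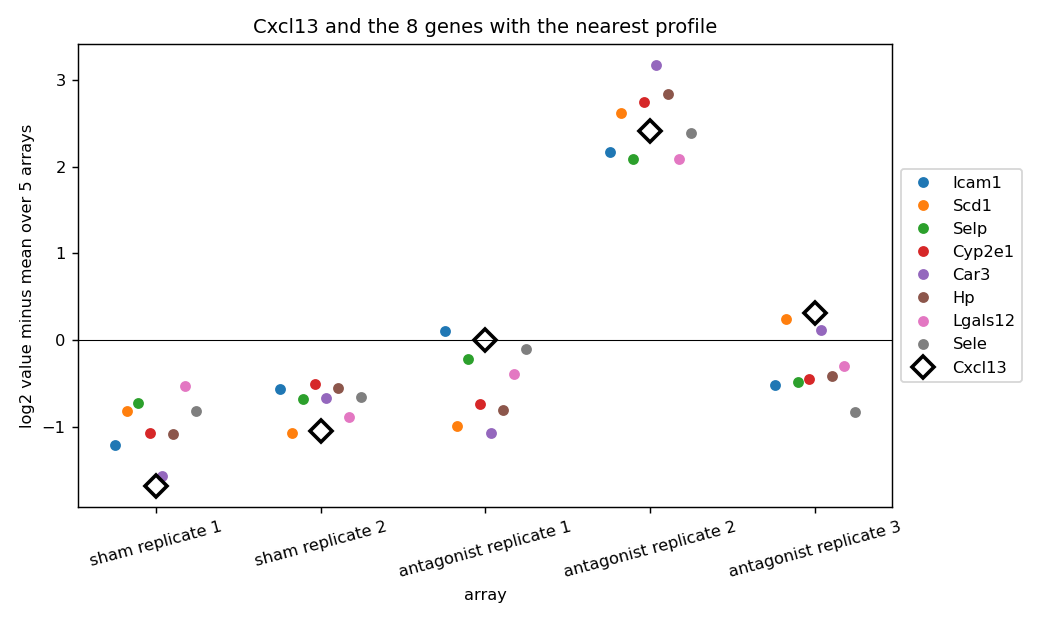
Log2 value minus the mean over the 5 arrays (vertical axis) for Cxcl13 (open diamonds) and the 8 genes nearest to it in profile (coloured points), by array (horizontal axis; points are shifted sideways for legibility). All 9 genes peak on antagonist replicate 2; on antagonist replicate 3 the centred value of Cxcl13 is highest of the 9, and its difference without antagonist replicate 2 is 1.52 against 0.20 to 0.68 for the others.

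Away from antagonist replicate 2 the likeness was looser. Without that array Icam1 differed between the groups by 0.68, Car3 by 0.64 and Scd1 by 0.57, while the remaining 5 differed by 0.20 to 0.37 and Cxcl13 by 1.52. Of the 8, Icam1, Selp and Lgals12 had groups that did not overlap, on the higher side, beside 6.19% of all tested genes. The 8 were picked by likeness to Cxcl13, whose groups were separated too. Car3 measured 5.17 and 6.06 in sham and 5.66, 9.90 and 6.85 with the antagonist.

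Several cell type lists also differed between the arrays, most of all on antagonist replicate 2, where Cxcl13 was highest. For 11 adipocyte markers with a probe, the mean level was 5.32 to 5.38 in sham and 5.39, 7.17 and 5.65 in antagonist replicates 1, 2 and 3. Antagonist replicate 2 was highest for 7 of the 10 adipocyte markers above the filter, beside 14.8% of all tested genes. Adipoq, the adiponectin gene, had a mean below the filter but measured 4.83 on that array against at most 3.05 elsewhere. For 14 mesothelial and epicardial markers the mean level was 4.27 in both sham hearts and 4.25, 4.88 and 4.26 with the antagonist, with 11 of 12 highest on antagonist replicate 2, led by Upk3b (6.61, against at most 4.90 elsewhere) and Gpm6a (7.25, against at most 5.94). For 11 atrial markers it was 6.78 to 6.94 in sham and 7.08, 8.51 and 6.80 with the antagonist. For 12 endothelial markers, which include the adhesion genes Sele, Selp and Vcam1, it was 7.17 to 7.33 in sham and 7.39, 7.96 and 7.20 with the antagonist. Of these 12, 5 were highest on antagonist replicate 2, among them the 3 adhesion genes. Plvap (6.16, against at most 5.50 elsewhere) and Vwf (7.11, against at most 6.99) were highest there too. Cdh5 and Pecam1 did not rise on that array. Cdh5 measured 10.16 and 10.09 in sham and 9.90, 9.82 and 9.95 with the antagonist, and Pecam1 lay between 8.97 and 9.07 on all arrays. Macrophages of the serous cavities are a known source of Cxcl13, and the mean level of 10 of their markers was 4.73 to 4.85 in sham and 4.86, 5.29 and 4.73 with the antagonist. Of those markers Selp also belongs to endothelium and Gata6 to heart muscle, and Cd5l and F5 were below the filter. Antagonist replicate 2 was highest for 4 of the 8 markers above the filter, Selp included. Vsig4 measured 5.225 on that array against at most 4.25 elsewhere, and Timd4 measured 5.40 against at most 5.21. On antagonist replicate 1, where the adipocyte list was at 5.39 and the mesothelial list at 4.25, Cxcl13 was 1.05 above the higher sham heart. On that array the atrial, endothelial and serous cavity macrophage lists were also above both sham hearts. On antagonist replicate 3, where Cxcl13 measured 6.85, the adipocyte list was above both sham hearts. The atrial, endothelial and serous cavity macrophage lists lay between the sham hearts there, and the mesothelial list lay below both. The part of these cell types in the Cxcl13 values of the antagonist hearts was not tested.

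Cxcl1 (Entrez Gene 14825) and Cxcl2 (Entrez Gene 20310), the neutrophil attractants, are neighbouring genes on chromosome 5. Cxcl2 measured 5.86 and 6.11 in sham and 6.85, 7.60 and 6.14 with the antagonist. Its groups did not overlap, but antagonist replicate 3 was 0.023 above the higher sham heart. The difference was 0.87 ± 0.50 (SE), or 1.83-fold, and 0.50, or 1.42-fold, without antagonist replicate 2. Cxcl1 measured 6.20 and 6.67 in sham and 6.78, 7.64 and 5.82 with the antagonist, so antagonist hearts held both its highest and its lowest value. Its difference was 0.31 ± 0.63 (SE) and changed sign, to -0.13, without antagonist replicate 2, while without antagonist replicate 3 it was 0.78. Both genes had the same order among the antagonist hearts, with replicate 2 highest and replicate 3 lowest. The genes are close relatives, and shared probe sequence was not examined here.

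Cxcl10 (Entrez Gene 15945), an interferon-induced ligand of Cxcr3, followed the same order. It measured 6.25 and 5.94 in sham and 6.38, 6.99 and 5.24 with the antagonist. Antagonist hearts again held the highest and the lowest value, and the difference was 0.11 ± 0.61 (SE). It was -0.28 without antagonist replicate 2, 0.59 without antagonist replicate 3 and -0.0455 without sham replicate 2. Cxcl9 (Entrez Gene 17329), the other Cxcr3 ligand, lies near Cxcl10 on the same chromosome, with the gene Art3 between them. It was the ligand with the lowest difference, -0.27 ± 0.19 (SE). Its values were 6.73 and 6.49 in sham and 6.17, 6.63 and 6.21 with the antagonist. Antagonist replicate 2 fell between the sham hearts, and without it the groups did not overlap and the difference was -0.42, or 1.33-fold higher in sham. Without that array 2 members were separated on the lower side, where 8.87% of all genes were, and 2 on the higher side, where 8.76% were.

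The promoters of Cxcl1, Cxcl2 and Cxcl10 are shown because they hold letters of the NF-kB type. The order of the antagonist hearts in these genes, replicate 2 highest and replicate 3 lowest, was also that of Cxcl16, the member with no promoter sequence here. The letters GGG, any 3 bases and TTCC were searched on both strands, and a palindromic site can match on each strand with a shift of 1 base. They were found before these 3 genes and not in the windows of the other 6 genes with a promoter sequence, while 5.56% of the 32851 promoters held them. Cxcl10 also held GAAA, any 2 bases and GAAA, letters of the interferon-stimulated response element, 213 to 204 bases before its start, as did Cxcl14 at 172 to 163 bases; 3.44% of promoters held these. Matches are in capitals, 5′ to 3′ along the gene, from RefSeq in build GRCm38.p6 (Cxcl1 at chr5:90891125-90891244 and Cxcl2 at chr5:90903779-90903898 on the plus strand, Cxcl10 at chr5:92348890-92349109 on the minus strand, each ending at the base before the start).
Cxcl1: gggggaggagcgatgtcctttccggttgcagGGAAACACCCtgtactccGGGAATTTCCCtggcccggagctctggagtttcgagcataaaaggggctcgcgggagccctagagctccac
Cxcl2: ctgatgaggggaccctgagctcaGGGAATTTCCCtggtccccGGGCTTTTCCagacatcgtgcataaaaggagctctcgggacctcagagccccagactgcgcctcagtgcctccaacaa
Cxcl10: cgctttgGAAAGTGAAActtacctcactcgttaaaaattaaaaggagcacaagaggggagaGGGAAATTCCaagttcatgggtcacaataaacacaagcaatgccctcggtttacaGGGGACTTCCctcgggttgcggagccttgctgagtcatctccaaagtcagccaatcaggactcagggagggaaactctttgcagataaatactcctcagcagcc
In Cxcl1 the matches lie 89 to 80 and 71 to 61 bases before the start, in Cxcl2 97 to 87 and 78 to 69, and in Cxcl10 159 to 150 and 104 to 95. The motifs were picked with the promoters and the values known, and no match in a window of 300 bases says nothing of sites elsewhere.

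Receptor genes and neutrophil genes were low and flat beside these ligands. Their levels lay near the array medians (3.92 to 3.95) or lower, so flat values there do not show that the genes were unchanged. Cxcr2, the receptor for Cxcl1 and Cxcl2, had the same value of 4.15 on all 5 arrays, and Cxcr1 differed by 0.021. Cxcr3, the receptor for Cxcl9 and Cxcl10, measured 4.03 on 4 arrays and 4.08 on antagonist replicate 3. Of 12 neutrophil markers 5 were above the level filter, 0 had groups that did not overlap, and S100a8, S100a9 and Ly6g lay below the filter. The mean level of the 12 markers was 3.07 to 3.15 in sham and 3.13 to 3.18 with the antagonist.

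Cxcl12 (Entrez Gene 20315) and its receptor gene Cxcr4 (Entrez Gene 12767) were both lower on average in the antagonist hearts. Cxcr4 measured 5.92 and 6.06 in sham and 5.89, 5.75 and 5.63 with the antagonist. The groups did not overlap, with 0.024 between antagonist replicate 1 and the lower sham heart, and they overlapped when each array was centred on its median. The difference was -0.24 ± 0.10 (SE), or 1.18-fold higher in sham, and -0.23 without antagonist replicate 2. Cxcl12 measured 7.38 and 7.61 in sham and 7.38, 7.38 and 7.28 with the antagonist. The value 7.38 was exactly equal on sham replicate 1 and antagonist replicates 1 and 2, so the difference of -0.15 ± 0.09 (SE) rests on sham replicate 2 above it and antagonist replicate 3 below it. It was -0.16 without antagonist replicate 2, -0.033 without sham replicate 2 and -0.26 without sham replicate 1. Ackr3, the scavenging receptor for Cxcl12, lay between 6.51 and 6.58 on all arrays.

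Cxcl14 (Entrez Gene 57266) hardly varied. Its values were 7.18 and 7.19 in sham and 7.19, 7.19 and 7.23 with the antagonist, 3 of them exactly equal. The whole range over the arrays was 0.046, the smallest of the 10 genes, and the difference was 0.016 ± 0.019 (SE), or 0.023 without antagonist replicate 2. Fibroblast and pericyte markers, which stand for stromal cells, were lower in 10 of 12 genes with a median difference of -0.10. On the lower side the groups of 3 of the 12 (Lum, Kcnj8 and Tcf21) did not overlap, beside 6.33% of all tested genes.

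Cxcl16 (Entrez Gene 66102), a membrane-bound chemokine that also binds oxidised lipoprotein, measured 6.76 and 6.91 in sham and 7.03, 7.57 and 6.90 with the antagonist. Antagonist replicate 3 was 0.013 below the higher sham heart, so the groups overlapped by that distance. The difference was 0.33 ± 0.24 (SE), or 1.26-fold, and 0.13, or 1.09-fold, without antagonist replicate 2. Its receptor gene Cxcr6 was below the level filter, between 2.48 and 3.08. Cx3cl1 (Entrez Gene 20312), the fractalkine gene of endothelium and neurons, had exactly equal values of 5.56 in both sham hearts and antagonist replicate 3, with 5.48 and 6.01 in antagonist replicates 1 and 2. Its difference of 0.12 ± 0.19 (SE) was carried by replicate 2 and was -0.041 without it. Its receptor gene Cx3cr1, of monocytes and resident macrophages, lay between 5.26 and 5.30.

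Of 8 enzymes and inhibitors that shed or trim chemokines, 7 were above the filter, 5 higher and 2 lower, with a median difference of 0.017 against 0 over all genes. Adam17, a sheddase of Cx3cl1, had a difference of 0.050 ± 0.033 (SE) with groups that did not overlap, and Adam10, a sheddase of Cx3cl1 and Cxcl16, a difference of -0.072 ± 0.035 (SE) with groups that did. Mmp2, a gelatinase that can cut Cxcl12, measured 8.30 and 8.55 in sham and 7.94, 8.26 and 8.27 with the antagonist, without overlap. Of the 7, 1 was thus separated on the higher side (6.19% of all tested genes) and 1 on the lower side (6.33%).

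**Figure D3:**
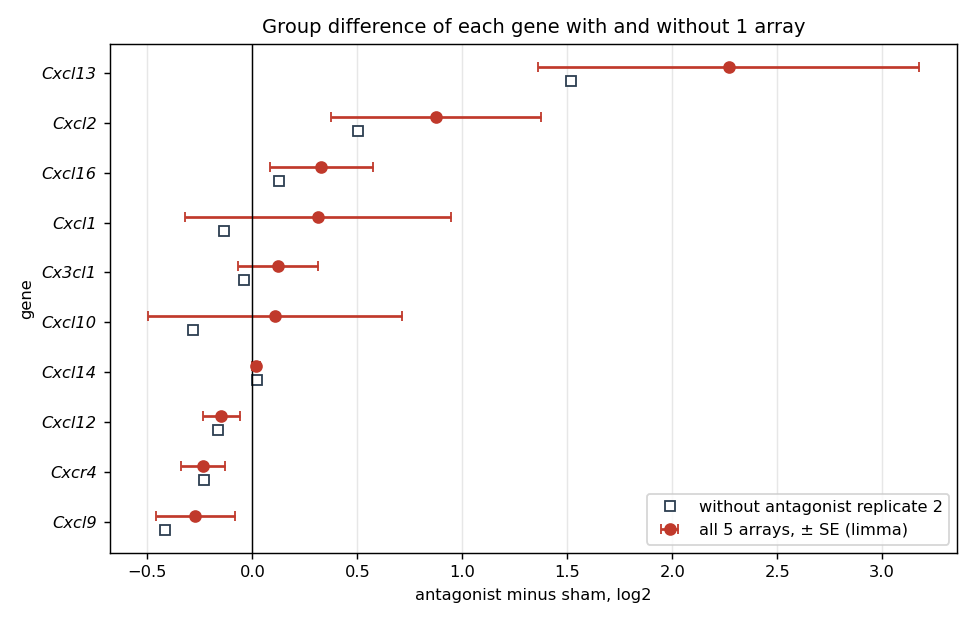
Difference between antagonist and sham hearts on the log2 scale (horizontal axis) for each of the 10 genes (vertical axis); red points use all 5 arrays with limma's SE, and open squares leave out antagonist replicate 2. Cxcl13 is at 2.27 and 1.52, while Cxcl1, Cxcl10 and Cx3cl1 move from above 0 to below 0 without that array.

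Antagonist replicate 2 had the highest value, with no tie, for 6 of the 10 genes: Cxcl1, Cxcl2, Cxcl10, Cxcl13, Cxcl16 and Cx3cl1. Over all tested genes this held for 14.8%. The members' median difference was 0.12 with all arrays and -0.087 without that array, beside a median of 0 over all tested genes in both cases. Of the 7 members with a difference above 0, 4 stayed above it: Cxcl13, Cxcl2, Cxcl16 and Cxcl14. Macrophage and monocyte markers, cells that make several of these ligands, had a list mean above sham on all antagonist arrays, 6.69 in both sham hearts and 6.86, 6.92 and 6.80 with the antagonist. Of 15 such markers above the filter, 11 were higher and 4 lower. The groups did not overlap for 7 on the higher side (6.19% over all genes), among them Cd14 (0.67 ± 0.17, SE) and Lyve1 (0.51 ± 0.17), and for 1 on the lower side (6.33%), Cd68, at -0.26 ± 0.17 (SE). Ccr2 was below the filter. The part of these cells in the chemokine values was not tested.

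NF-kB is the transcription factor that induces Cxcl1, Cxcl2 and Cxcl10 as well as its own inhibitors. Of 14 feedback and pathway genes 12 were higher and 2 lower with the antagonist, with a median difference of 0.29, or 0.10 without antagonist replicate 2. The inhibitor gene Nfkbia measured 8.03 and 8.18 in sham and 8.59, 9.69 and 8.39 with the antagonist, a difference of 0.78 ± 0.47 (SE), or 0.39 without antagonist replicate 2. Its groups did not overlap, nor did those of Icam1 (1.47 ± 0.97, SE, and 0.68 without that array) and Nfkbie (0.41 ± 0.29, SE, and 0.17). These 3 of the 14 were separated on the higher side, where 6.19% of all tested genes were. Antagonist replicate 2 was highest for 10 of the 14, and for 14.8% of all tested genes.

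Genes of the lymphotoxin and noncanonical NF-kB pathway, which drives Cxcl13 in lymphoid stroma, gave a mixed picture. Of 9 above the filter, 5 were higher and 2 lower, with a median difference of 0.16, or 0.0088 without antagonist replicate 2, and 0 passed the limma threshold. The kinase gene Map3k14 measured 4.20 and 4.18 in sham and 4.55, 4.55 and 4.53 with the antagonist, with antagonist hearts close together where those of Cxcl13 were far apart. Nfkb2 (0.58 ± 0.27, SE, and 0.37 without antagonist replicate 2) and Traf2 (0.29 ± 0.08) were also separated on the higher side. Tnfsf13b, the B cell survival factor gene, was separated on the lower side (-0.28 ± 0.07). That made 3 of the 9 on the higher side (6.19% of all tested genes) and 1 on the lower side (6.33%). The ligand genes Lta and Ltb each had 1 value on all arrays, a kind of tie that median polish can give.

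Genes of the interferon gamma pathway, which induces Cxcl9 and Cxcl10, had a median difference of 0.050 over 14 genes, 10 higher and 3 lower, or 0.014 without antagonist replicate 2. Tap1, a peptide transporter gene, had groups that did not overlap (0.23 ± 0.15, SE, and 0.10 without that array). It was the 1 gene of the 14 that was separated, on the higher side, beside 6.19% of all tested genes. Irf1, the transcription factor gene (chosen after its values were seen), measured 6.25 and 6.60 in sham and 6.81, 8.16 and 6.45 with the antagonist, highest on the same array as Cxcl10, with a difference of 0.71, or 0.20 without it. Ifng itself lay between 4.29 and 4.40. Of 8 T cell markers, the cells that Cxcl9 and Cxcl10 draw, 5 were above the filter, 0 were separated, and the mean level was 3.55 to 3.60 in sham and 3.56 to 3.61 with the antagonist. Of 15 other CXC and CX3C family genes, 11 were above the filter, 7 higher and 3 lower, and 0 had groups that did not overlap. The largest difference among them was that of the platelet chemokine gene Ppbp, 0.26 ± 0.49 (SE), with sham hearts at 4.74 and 3.38.

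**Figure D4:**
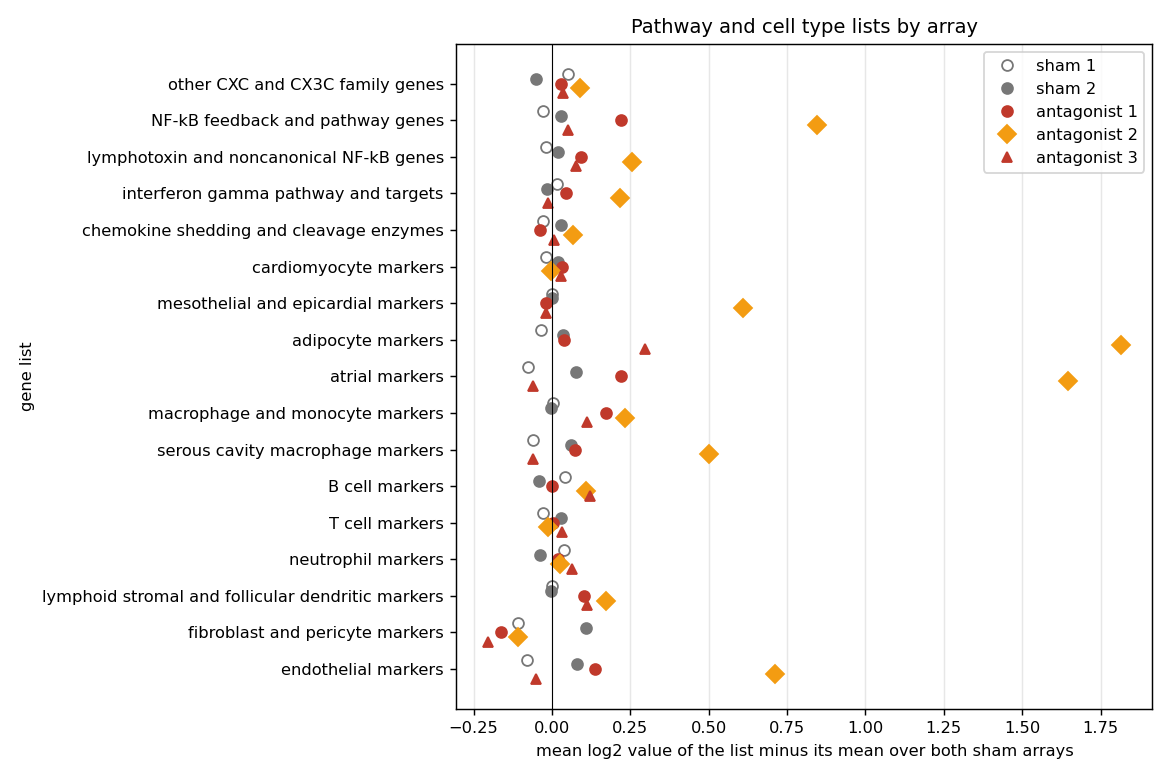
Mean log2 value of each gene list (vertical axis) on each array, minus the mean of both sham arrays (horizontal axis); grey circles are sham hearts, red circles and triangles antagonist replicates 1 and 3, and orange diamonds antagonist replicate 2. The diamonds lie far to the right for adipocyte (7.17 against 5.32 to 5.38 in sham), atrial (8.51 against 6.78 to 6.94), NF-kB, endothelial and mesothelial genes, and near 0 for cardiomyocyte, T cell and neutrophil markers.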

How the data were processed

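RNA of 5 hearts (300 ng each, per the labels' protocols) was hybridised to Affymetrix whole-transcript arrays. The deposited values are log2 values that the authors made with RMA, per the submitters' processing notes; of the RMA version, probe set library and genome build, the sources used here state none. Of 41345 probes, 23521 had 1 gene symbol, 1814 had several and 16010 had none listed. For symbols with several probes the brightest was kept, and genes with a mean at or above the 40th percentile of probe means (3.42) were tested. Median polish left ties: 73.9% of tested genes had fewer than 5 different values.

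The contrast was fitted in R 4.3.3 with limma 3.58.1 (lmFit, eBayes, two-sided, Benjamini-Hochberg over 15294 genes, threshold 0.05), tested on simulated data. Over the 10 divisions of 5 arrays into 2 and 3, an exact permutation test cannot go below p = 0.1 and was not run. The members and lists were chosen with earlier results of these data known. All members are named; other genes were named by non-overlap and size of difference in their list, by likeness to Cxcl13 (8 genes), or by excess on antagonist replicate 2. Receptor, sheddase and below-filter marker genes named beside a member were added for their role. Chemokine protein sequences were not used here. Alternatives covered level filters, normalization, probe averaging, the variance model, the replicate block, ties and leaving out each array.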

Additional observations from a re-analysis of the deposited data

How the results depend on the processing

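Each of the 10 members was recomputed under 12 alternatives, 120 values in all, of which 116 kept the sign and the side of the threshold and 4 reversed. Not all of these values are separate checks. Level filters and probe averaging cannot change the difference of a member with 1 probe. The replicate block gave the members the same differences as leaving out antagonist replicate 3. Leaving out antagonist replicate 2 reversed Cxcl1 (-0.13, in a range up to 0.78 over the arrays left out), Cxcl10 (-0.28, up to 0.59) and Cx3cl1 (-0.041, up to 0.22), and leaving out sham replicate 2 reversed Cxcl10 (-0.0455); no member passed the threshold under any of them (smallest limma adjusted p 0.224). The count of genes called was 0 with all arrays and 0 to 2058 with single arrays left out (1319 without sham replicate 1 and 2058 without sham replicate 2, where a lone sham array is assumed to vary like the others). The count of members separated on the higher side was 2 (6.19% of all genes), 3 after a second quantile normalization (9.91%), and 2 to 5 with single arrays left out: 4 without sham replicate 2 (28.1%) and 5 without antagonist replicate 3 (9.25%). On the lower side it was 1, and 1 to 2 with single arrays left out (2 without sham replicate 1, sham replicate 2 or antagonist replicate 2, beside 22.5%, 24.6% and 8.87% of all genes), 2 after a second quantile normalization (14.2%) and 0 with arrays centred on their medians (13.8%); the cause was not tested. The replicate block, with the number as a term, called 0 genes and 754 at an unadjusted p under 0.05 (704 without it); the hearts share only a number (correlations of deviations of -0.11 for number 1 and 0.027 for number 2). Array weights gave 318 at that level and the restriction to genes with 5 different values gave 412 of 3991. Single probes of a member could not be compared, since each member has 1.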
